A study of Homo sapiens with 4 samples.

Results

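The chromatin coregulators described here are 10 genes whose proteins add, remove or read acetyl and methyl groups on histones: CREBBP, EP300, WDR5, HDAC1, HDAC2, HDAC3, SIRT1, EZH2, EED and SUZ12. They were taken by symbol from a gene-level expression table of 62077 rows. All 10 were found, each on 1 row of an assembled chromosome, and all 10 passed the filter on low values, a mean of at least 1 FPKM over the libraries, with 15057 genes in all. FPKM scale the fragments of a gene by its exon length and by the library's mapped fragments, so levels of different genes can be set side by side.

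The cells were FaDu, an established epithelial line from a squamous carcinoma of the lower throat (hypopharynx). Each of 4 groups had 1 library: N-scr (normoxia, scrambled control), H-scr (hypoxia, scrambled control), N-si (normoxia, TET1-si) and H-si (hypoxia, TET1-si). Hypoxic cells spent 19 h at 1% O2, in a gas mix that held 5% CO2 with 94% N2. The study's methods describe knockdown as lentiviral infection with pLKO.1-puro shRNA vectors, so the scrambled cells were infected too, and all cells were used a few days after infection. The study asked how the response to hypoxia depends on TET1, the dioxygenase that oxidises 5-methylcytosine in DNA. Of these coregulators, its reporter assays used CBP and the WDR5 promoter. It also reported CBP pulled down with HIF-1α, and HIF-2α bound to the WDR5 promoter. No group had a replicate. No difference below therefore has a replicate check, no p-value is given, and each describes these libraries rather than the conditions.

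As background, histone acetylation opens chromatin and is written by acetyltransferases such as CBP (CREBBP) and p300 (EP300), which hypoxia-inducible factors recruit to their target genes. Histone deacetylases and the NAD-dependent sirtuins take the acetyl groups off. WDR5 is the shared scaffold of the complexes that methylate H3K4 at active promoters. Polycomb repressive complex 2 (PRC2) methylates H3K27 and silences genes, with EZH2 as its catalytic subunit, EED as the reader of the mark and SUZ12 as the scaffold.

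TET1, the target of the knockdown, was low throughout. Its 4 FPKM values were 0.129, 0.331, 0.0493 and 0.122, and here and below 4 values in a row stand for N-scr, H-scr, N-si and H-si in that order. They rest on about 28, 76, 11 and 26 reads, lower in the TET1-si library of each oxygen state. The depth recovered from the low values was 22500000 to 24500000 reads per library. The 7 markers of squamous epithelium were above 0 in all libraries and summed to 4664, 7355, 1854 and 3917 FPKM. With TET1-si 2 of the 7 were at least 2-fold lower in each oxygen state, among them KRT14, with 42.1, 99.9, 0.487 and 1.41 FPKM. Of the fibroblast, leukocyte and endothelial markers, most were at or near 0, with COL1A2, LUM and CD3E at 0 in every library. The exceptions were COL1A1 (5.29 to 37.0 FPKM), CD68 (19.8 to 26.8 FPKM), CDH5 (8.75 to 45.5 FPKM) and VWF (0.160 to 2.94 FPKM). With bulk RNA, fewer cells of a type and less RNA per cell cannot be told apart.

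Changes are given as differences of log2(FPKM + 0.1), where the pseudocount of 0.1 slightly understates the change of low genes. Each is followed, where it matters, by a 95% counting interval (Clopper-Pearson) on approximate reads, which covers counting error only. A gene was called where it changed at least 2-fold. The 4 comparisons share libraries in pairs, H-scr for example entering both a hypoxia and a TET1-si comparison, so their values are set side by side and not counted as separate evidence.

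The same genes stood at the ends of the order of levels in all libraries. HDAC1 and HDAC2 were the 2 highest, at 127 to 198 FPKM, which put their mean levels near the 94.7 and 94.6 percentiles of the genes tested. SIRT1 was the lowest, at 7.84 to 9.27 FPKM, at the 39.6 percentile. The other 7 genes lay between 13.5 and 91.9 FPKM.

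**Figure D1:**
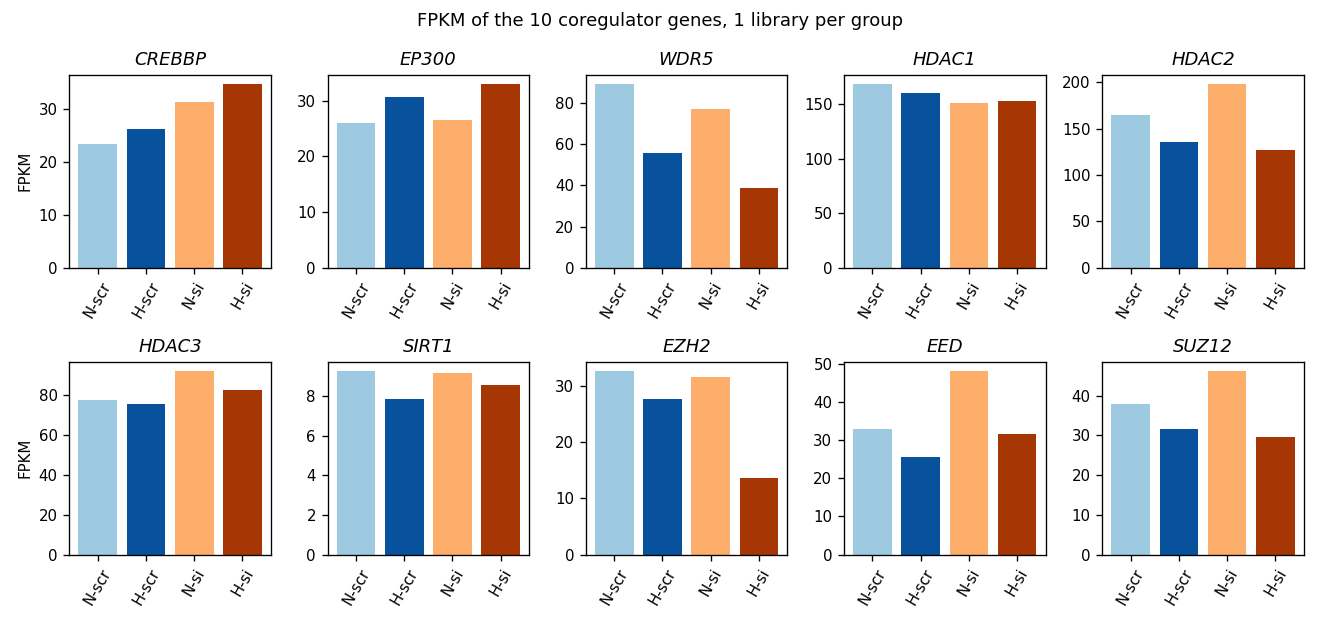
FPKM of each of the 10 genes (vertical axes, each starting at 0 and with its own scale) in N-scr, H-scr, N-si and H-si, with 1 bar per library and no error bar, because each group had 1 library. EZH2 is between 27.7 and 32.6 FPKM in 3 libraries and 13.5 in H-si, and WDR5 is lower in both hypoxic libraries.

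Few of these genes changed 2-fold. In scrambled cells under hypoxia 0 of the 10 did, where 17.4% of all genes tested did. In TET1-si cells under hypoxia 1 did, EZH2, against 21.2% of all genes. For TET1-si against scrambled cells 1 did in hypoxia, again EZH2, against 20.4%, and 0 did in normoxia, against 17.7%. Read against the lower direction alone, in which EZH2 moved, the shares of all genes were 8.66% for hypoxia in TET1-si cells and 8.35% for TET1-si in hypoxia, beside 4.53% for hypoxia in scrambled cells and 5.56% for TET1-si in normoxia. A single called gene among 10 is therefore close to the background of lowered genes.

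At 1.5-fold, WDR5 alone was lower in scrambled cells under hypoxia, against 13.7% of all genes. In TET1-si cells 5 of the 10 were lower by that much under hypoxia (WDR5, HDAC2, EZH2, EED and SUZ12), against 19.0% of all genes. EZH2 alone was lower by that much for TET1-si in hypoxia (16.8% of all genes), and 0 were in normoxia (12.0%). None of the 10 was higher by 1.5-fold in any of the 4 comparisons, against 23.2%, 23.7%, 24.3% and 24.7% of all genes for hypoxia in scrambled cells, hypoxia in TET1-si cells, TET1-si in hypoxia and TET1-si in normoxia. The median change of the 10 genes was -0.24 for hypoxia in scrambled cells and -0.38 for hypoxia in TET1-si cells, beside medians of 0.05 and 0.03 over all genes tested. It was 0.02 for TET1-si in hypoxia and 0.14 for TET1-si in normoxia, beside 0.10 and 0.15 over all genes.

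**Figure D2:**
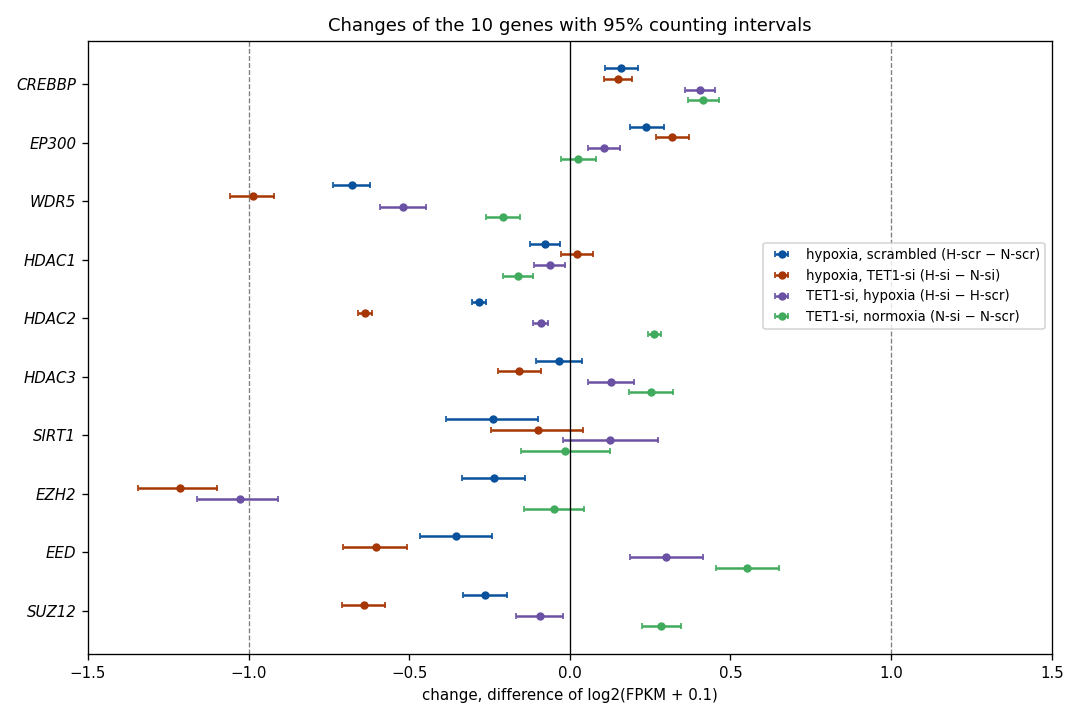
Change of each gene in the 4 comparisons (horizontal axis, difference of log2(FPKM + 0.1)), with 95% counting intervals as bars and dashed lines at 2-fold. EZH2 passes 2-fold in hypoxia in TET1-si cells (-1.21) and for TET1-si in hypoxia (-1.03), and WDR5 comes close in the first of these (-0.99).

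EZH2, the H3K27 methyltransferase (ENSG00000106462, chromosome 7, 148504475 to 148581413, minus strand, hg19), had 32.6, 27.7, 31.5 and 13.5 FPKM. The first 3 values spanned 4.95 FPKM and the H-si library stood apart from them. Hypoxia changed EZH2 by -0.24 in scrambled cells (interval -0.33 to -0.14), and with TET1-si the hypoxia change was -1.21 (interval -1.34 to -1.10). TET1-si changed it by -1.03 in hypoxia (interval -1.16 to -0.91, which holds 2-fold) and by -0.05 in normoxia (interval -0.14 to 0.04). Subtracting the scrambled from the TET1-si hypoxia response left -0.98, which lay at the 8.14 percentile of all genes tested.

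The other core subunits of PRC2 were, like EZH2, lower in both hypoxia responses. They fell less than EZH2 under hypoxia in TET1-si cells and, unlike EZH2, were higher with TET1-si in normoxia. EED (ENSG00000074266, chromosome 11, 85955586 to 85989781, plus strand), which binds trimethylated H3K27, had 32.8, 25.7, 48.2 and 31.7 FPKM. It was lower in hypoxia in both cell states (-0.35 and -0.60) and higher in the TET1-si library of both oxygen states (0.30 in hypoxia and 0.55 in normoxia). SUZ12 (ENSG00000178691, chromosome 17, 30264037 to 30328064, plus strand), the scaffold, had 38.0, 31.6, 46.3 and 29.6 FPKM. It too was lower in hypoxia, by -0.26 in scrambled and -0.64 in TET1-si cells. With TET1-si it changed by 0.28 in normoxia and by -0.09 in hypoxia, where the counting interval left out 0 for 2 of the 3 transcript lengths tried. A pseudogene of SUZ12, SUZ12P, was listed at 16.2 to 19.6 FPKM, so the level of SUZ12 is uncertain where the counting could split reads between them, which was not measured.

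Ratios between the subunits show the same values another way. EED stood at 1.01, 0.929, 1.53 and 2.34 times the FPKM of EZH2, and SUZ12 at 1.16, 1.14, 1.47 and 2.19 times. EZH1, the other H3K27 methyltransferase that PRC2 can carry, had 13.8, 19.3, 13.9 and 26.0 FPKM. The ratio of EZH2 to EZH1 was 2.37, 1.43, 2.26 and 0.519. H-si was thus the only one of the 4 libraries in which EZH1 was above EZH2.

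Of the 8 genes on the list of PRC2 accessory subunits and EZH1, 1 rose and 1 fell at least 2-fold under hypoxia in TET1-si cells. Of all genes 21.2% passed 2-fold there in either direction. PHF1, a reader of H3K36 methylation, rose by 1.25 in scrambled and 1.12 in TET1-si cells. PHF19, a related reader, had 67.2, 47.2, 26.8 and 10.7 FPKM, with TET1-si changes of -2.13 in hypoxia and -1.32 in normoxia. The histone chaperones RBBP4 and RBBP7 changed by -0.74 and -0.52 under hypoxia in TET1-si cells. Among 19 subunits of PRC1, the complex that binds methylated H3K27, CBX7 rose under hypoxia by 1.21 and 1.10 in scrambled and TET1-si cells. In TET1-si cells, where 21.2% of all genes passed 2-fold under hypoxia, PHC1 rose by 1.25. CBX2 and PCGF6 fell there by 1.18 and 1.16 on the log2 scale. Of the 8 genes listed as removing or opposing H3K27 methylation, KDM6B, an H3K27 demethylase, was higher in TET1-si cells in both oxygen states (1.17 in hypoxia and 1.55 in normoxia). KDM6A, the other such demethylase listed, was lower in both (-0.38 and -0.18). The medians of the 8 were 0.02 and 0.14, beside 0.10 and 0.15 over all genes.

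EZH2 is known as a target of E2F factors, which drive S-phase genes. Of 14 E2F-regulated S-phase genes, 13 were at least 2-fold lower under hypoxia in TET1-si cells, with a median of -2.03. In scrambled cells 0 were, with a median of -0.53. For TET1-si in hypoxia 11 of the 14 were lower, with a median of -1.55, and in normoxia 1 was lower and 1 higher, with a median of -0.01. Of all genes tested, 8.66%, 4.53%, 8.35% and 5.56% were at least 2-fold lower in these 4 comparisons, in the order just given. RRM2, a subunit of ribonucleotide reductase, fell from 175 FPKM in N-si to 24.2 in H-si. CDC6, a replication licensing factor, fell from 92.0 to 14.9, and MCM2, of the replicative helicase, from 100 to 16.9. MCM5, another helicase subunit, fell by 2.23 on the log2 scale, E2F2 from 5.07 to 0.775, and TYMS, which makes thymidylate, from 145 to 31.0. E2F1 itself had 33.7, 24.8, 34.8 and 8.45 FPKM, low in the same library as EZH2. CCNE1, a cyclin, was the exception in TET1-si cells, with 4.34, 4.65, 7.65 and 4.80 FPKM. The part of these genes in the change of EZH2 was not tested.

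**Figure D3:**
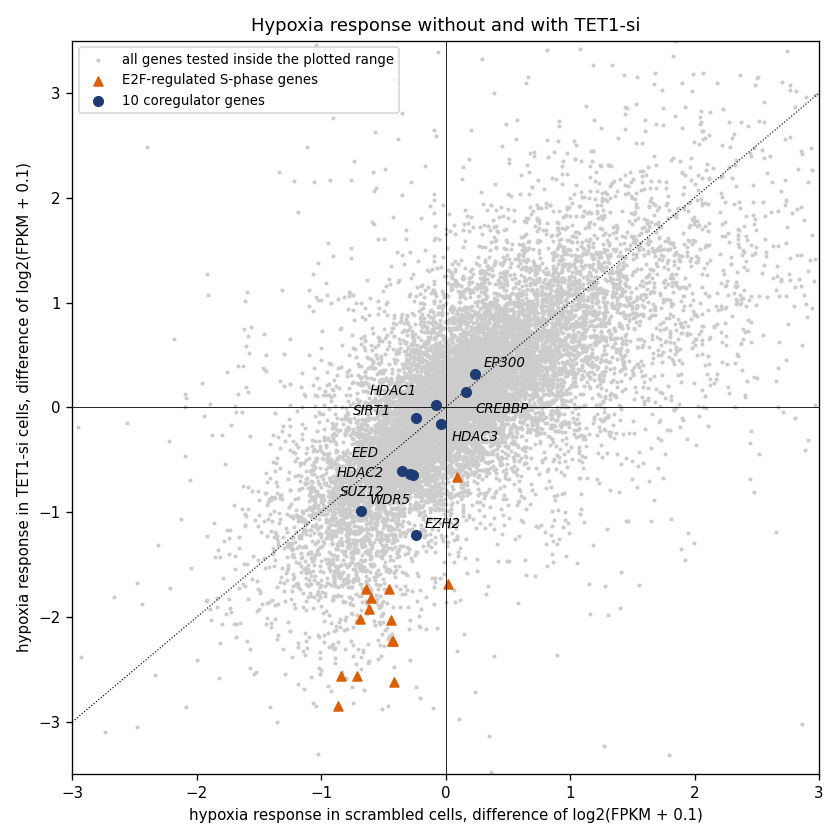
Hypoxia response in scrambled cells (horizontal axis) against that in TET1-si cells (vertical axis), both as differences of log2(FPKM + 0.1), for the 10 coregulator genes, 14 E2F-regulated S-phase genes and all genes tested inside the plotted range, with the line of equal response dotted. Both axes use N-scr, H-scr, N-si and H-si once each; EZH2 lies below the line by 0.98, and 13 of the 14 S-phase genes lie lower on the vertical axis than EZH2.

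Promoter windows from RefSeq (GRCh38.p14, 250 bases before to 30 after a start site) were searched on both strands for 4 E2F letter strings (TTTCCCGC, TTTCGCGC, TTTGCCGC and TTTGGCGC) and for the core of the hypoxia response element (ACGTG or GCGTG). The E2F strings were in 3.14% of all 35116 windows and the hypoxia core in 46.3%. Among the 10 genes an E2F string was found at EZH2, 2 bases after the first of its start sites, and at SUZ12, 189 bases before its start. The window at the second start site of EZH2 held none. The windows with a string are shown, with matches in capitals, and EED, which had no E2F string in its window, is shown beside them. All 4 E2F strings hold CG, and the windows shown held 45 CG at EZH2, 37 at SUZ12 and 13 at EED. The part of CG content in the E2F matches was not tested. The windows lie at chr7:148884262-148884541 (minus strand), chr17:31936757-31937036 (plus strand) and chr11:86244503-86244782 (plus strand).
EZH2: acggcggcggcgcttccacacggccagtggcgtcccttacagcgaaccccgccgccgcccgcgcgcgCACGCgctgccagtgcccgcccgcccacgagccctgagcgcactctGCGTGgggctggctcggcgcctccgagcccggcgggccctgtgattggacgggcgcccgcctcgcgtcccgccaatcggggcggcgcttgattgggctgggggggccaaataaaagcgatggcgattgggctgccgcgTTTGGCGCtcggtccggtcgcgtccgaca
SUZ12: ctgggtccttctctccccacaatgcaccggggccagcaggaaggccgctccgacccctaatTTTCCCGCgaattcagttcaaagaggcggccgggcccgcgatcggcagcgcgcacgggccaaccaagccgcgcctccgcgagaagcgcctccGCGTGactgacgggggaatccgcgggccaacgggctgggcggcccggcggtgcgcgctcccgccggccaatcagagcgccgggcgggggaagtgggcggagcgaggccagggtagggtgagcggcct
EED: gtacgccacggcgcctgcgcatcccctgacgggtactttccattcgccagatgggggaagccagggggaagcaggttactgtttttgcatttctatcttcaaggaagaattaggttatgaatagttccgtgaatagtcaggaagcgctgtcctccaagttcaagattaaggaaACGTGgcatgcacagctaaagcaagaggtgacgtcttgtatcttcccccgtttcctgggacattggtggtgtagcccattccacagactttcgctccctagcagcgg
A match is a description of the letters and does not mark a bound site.

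WDR5, the scaffold of the H3K4 methyltransferase complexes (ENSG00000196363, chromosome 9, 137001210 to 137025093, plus strand), had 89.2, 55.7, 77.2 and 38.9 FPKM. Both hypoxic libraries were below both normoxic ones. Hypoxia changed it by -0.68 in scrambled cells (interval -0.74 to -0.62), and with TET1-si the hypoxia change was -0.99 (interval -1.06 to -0.92). In scrambled cells this was a drop of 37.5%, at the 10.8 percentile of all genes. The TET1-si response was -0.52 in hypoxia and -0.21 in normoxia. The study reported the other direction by another measure: hypoxia-inducible factor with TET1 activated a reporter driven by the WDR5 promoter. That assay read promoter activity in transfected cells of another line, not WDR5 RNA in FaDu cells.

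Of 14 partners of WDR5 in the KMT2 and SETD1 methyltransferase complexes, 0 changed 2-fold in any of the 4 comparisons, where 17.4% to 21.2% of all genes did, with medians from -0.08 to 0.08. RBBP5, a core subunit, changed by -0.53 under hypoxia in scrambled cells and by -0.47 with TET1-si. ASH2L, another core subunit, changed by -0.15 and 0.12. Of 8 partners in the NSL acetyltransferase complex, KANSL3 alone passed 2-fold, by 1.35 for TET1-si in hypoxia, where 20.4% of all genes did. KANSL2 (-0.95) passed it there as well with median-of-ratios scaling (-1.07) and with upper-quartile scaling.

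The hypoxia core was in 10 of the 15 windows of these genes, beside 46.3% of all windows. It was at 8 of the 10 genes, and no share per gene was computed over all genes. Both core strings hold CG. The 15 windows held 4 to 48 CG, most of them more than the median of 13 over all windows. The part of CG content in the matches was not tested. SIRT1 held 6 matches, but CACGTG at 2 places was counted on both strands, so they fell at fewer places. RefSeq gives WDR5 4 start sites. The hypoxia core was found at the third and the fourth of these windows, and the fourth is shown because it holds the core on both strands as CACGTG, in capitals (chr9:134136171-134136450, plus strand).
WDR5: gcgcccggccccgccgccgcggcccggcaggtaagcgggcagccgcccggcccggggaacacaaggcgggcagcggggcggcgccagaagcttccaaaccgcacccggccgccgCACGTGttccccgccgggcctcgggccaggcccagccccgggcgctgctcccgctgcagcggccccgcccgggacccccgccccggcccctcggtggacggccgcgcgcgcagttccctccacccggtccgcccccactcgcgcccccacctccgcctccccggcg
The table gives 1 value per gene and cannot say which start site was in use.

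The changes of the acetyltransferases CREBBP and EP300 were above 0 in all 4 comparisons, except that the TET1-si changes of EP300 turned sign under other scalings. CREBBP (ENSG00000005339, chromosome 16, 3775055 to 3930727, minus strand) had 23.4, 26.2, 31.2 and 34.7 FPKM. Both TET1-si libraries were above both scrambled ones, with changes of 0.40 in hypoxia (interval 0.36 to 0.45) and 0.41 in normoxia (interval 0.37 to 0.47). Less the all-gene median, they came to 0.30 and 0.27. EP300 (ENSG00000100393, chromosome 22, 41487790 to 41576081, plus strand) had 25.9, 30.6, 26.4 and 33.0 FPKM. It was higher in both hypoxic libraries, by 0.24 in scrambled and 0.32 in TET1-si cells. Its TET1-si changes of 0.11 in hypoxia and 0.03 in normoxia are those that turned. The ratio of CREBBP to EP300 was 0.902, 0.854, 1.18 and 1.05.

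Around this pair, all 5 genes tested on the list of hypoxia-inducible factor and CBP/p300 partners were above 0 in both hypoxia responses. Their medians were 0.70 in scrambled and 0.98 in TET1-si cells, beside 0.05 and 0.03 over all genes. The all-gene medians were thus above 0 too. CITED2, which competes with hypoxia-inducible factors for CBP and p300, rose by 1.37 in scrambled and 1.62 in TET1-si cells. CITED4, of the same family, changed by 1.11 and 0.98, and the first was 0.94 with a pseudocount of 1. EPAS1, which encodes HIF-2α, had 13.3, 21.7, 26.8 and 62.4 FPKM and was higher in TET1-si cells in both oxygen states (1.52 in hypoxia and 1.01 in normoxia, the latter 0.84 with median-of-ratios scaling). HIF1AN, the asparagine hydroxylase that blocks the binding of p300, changed by 0.24 and 0.12. Among 12 other acetyltransferases and coactivators, KAT2B (PCAF) rose under hypoxia by 1.17 and 1.05 (0.90 and 0.99, under 2-fold, with a pseudocount of 1) and was higher with TET1-si by 2.30 in hypoxia and 2.43 in normoxia. KAT2A (GCN5), its close relative, had 71.7, 49.7, 77.0 and 45.8 FPKM. HAT1, which acetylates new histone H4, fell by 1.59 on the log2 scale under hypoxia in TET1-si cells.

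HDAC1 and HDAC3, both class I deacetylases, changed by at most 0.25 in size. HDAC1 (ENSG00000116478, chromosome 1, 32757687 to 32799236, plus strand) had 168.3, 159.7, 150.6 and 152.9 FPKM. Its changes ran from -0.16 to 0.02, and those of -0.08 and -0.06 turned sign when the columns were rescaled to TPM. HDAC3 (ENSG00000171720, chromosome 5, 141000443 to 141016437, minus strand), the catalytic subunit of the NCOR1 corepressor complex, had 77.2, 75.4, 91.9 and 82.4 FPKM. It was higher in the TET1-si library of each oxygen state, by 0.13 in hypoxia and 0.25 in normoxia, and its hypoxia change of -0.03 in scrambled cells turned sign under other scalings. The locus of HDAC3 overlaps that of ARAP3 on the same strand (11.6, 13.4, 17.6 and 29.4 FPKM), so reads could be split between them.

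HDAC2 (ENSG00000196591, chromosome 6, 114254192 to 114332472, minus strand) had 165.2, 135.7, 198.1 and 127.5 FPKM. Both hypoxic libraries were below both normoxic ones, with changes of -0.28 in scrambled and -0.64 in TET1-si cells. With TET1-si it changed by 0.26 in normoxia and by -0.09 in hypoxia, and the latter interval also left out 0 for 2 of the 3 lengths. The ratio of HDAC1 to HDAC2 was 1.02, 1.18, 0.760 and 1.20. HDAC2 and SUZ12, on different chromosomes, had the most alike patterns of all pairs formed by a member and the 130 genes compared with it, with a root mean square difference of 0.0087 on the centred log2 scale over 4 libraries. RBBP4 came next for both, at 0.0658 and 0.0714.

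SIRT1 (ENSG00000096717, chromosome 10, 69644427 to 69678147, plus strand), the nuclear NAD-dependent deacetylase, had 9.27, 7.84, 9.18 and 8.56 FPKM. The 4 values span 1.43 FPKM. Its change of -0.24 under hypoxia in scrambled cells had an interval of -0.39 to -0.10. The other 3 changes had intervals that held 0, and 2 of them turned sign under other scalings.

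Of 14 other deacetylases and sirtuins, 2 rose at least 2-fold under hypoxia in scrambled cells, HDAC5 (1.58) and SIRT4 (1.28). Of all genes 17.4% passed 2-fold there in either direction. SIRT4 rests on about 9 and 26 reads (interval 0.29 to 2.71), and with a pseudocount of 1 its change was 0.58. HDAC9 was lower with TET1-si, by -2.76 in hypoxia and -1.85 in normoxia. HDAC11 was higher with TET1-si, by 1.55 in hypoxia and 2.01 in normoxia, and so was SIRT7, by 1.53 and 1.21. Under hypoxia in TET1-si cells 21.2% of all genes passed 2-fold. Among 23 subunits of HDAC1, HDAC2 and HDAC3 complexes, CHD3, a NuRD remodeller, rose there by 1.31 and TBL1X fell by 1.02 on the log2 scale. With a pseudocount of 1 the change of TBL1X was -0.81. NCOR1, a corepressor that carries HDAC3, changed by 0.57 there.

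**Figure D4:**
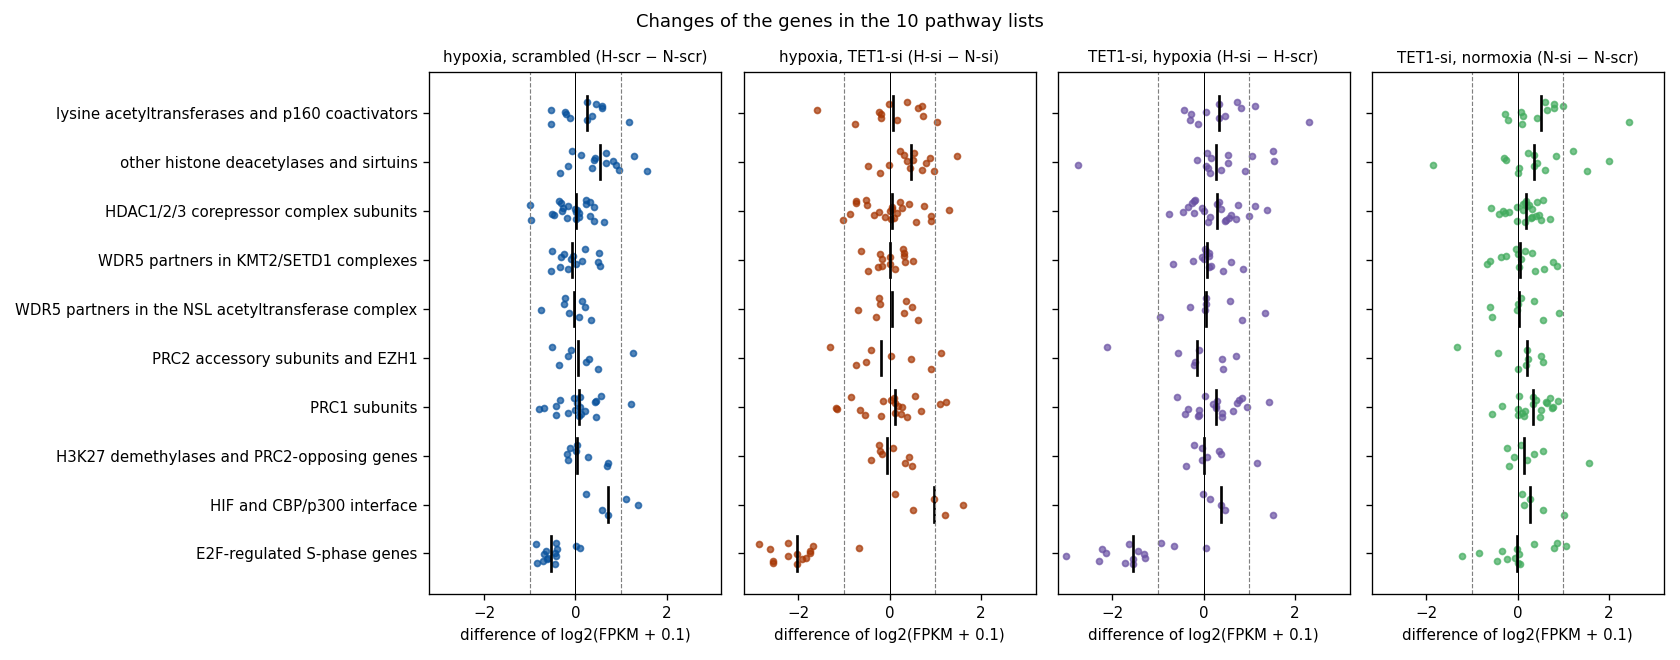
Changes of the genes on the 10 pathway lists (rows) in the 4 comparisons (panels), as differences of log2(FPKM + 0.1), with 1 point per gene tested, a black bar at each list's median and dashed lines at 2-fold. The E2F-regulated S-phase genes have medians of -2.03 for hypoxia in TET1-si cells and -1.55 for TET1-si in hypoxia.

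The genes around each coregulator were compared as well, because TET1-si responses in these libraries varied by chromosome region. For EED the 50 nearest protein-coding genes had a median TET1-si response of 0.58 in hypoxia and 0.76 in normoxia, above the 0.30 and 0.55 of EED itself. For CREBBP the neighbours had 0.28 and 0.27, beside its own 0.40 and 0.41, but with the 20 nearest genes they had 0.43 and 0.39, so that in hypoxia CREBBP was no longer above them. The neighbours of EZH2 had -0.21 in hypoxia and -0.17 in normoxia, and with the 20 nearest genes -0.16 and 0.01. In hypoxia EZH2, at -1.03, was above only 3 of its 50 neighbours, and in the hypoxia response of TET1-si cells it was below all 50. WDR5 was above only 2 of its 50 neighbours in each hypoxia response, and those neighbours had medians of 0.16 and 0.12. The part of the region in any of these changes was not tested.

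**Figure D5:**
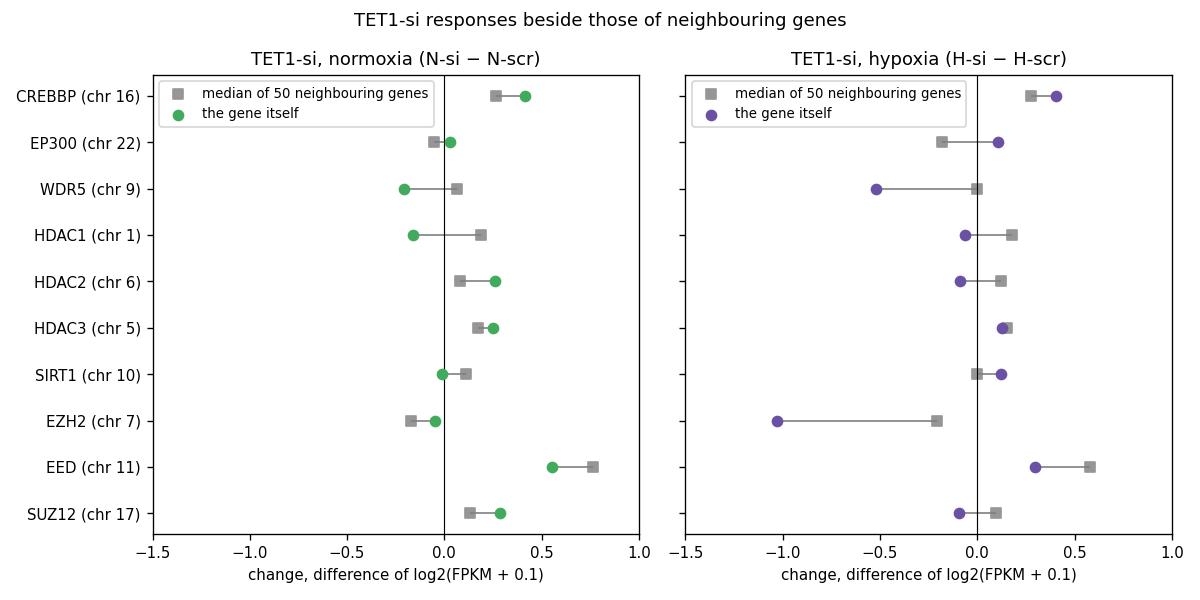
TET1-si response of each gene (circles) beside the median of its 50 nearest protein-coding genes (squares) in normoxia and in hypoxia, as differences of log2(FPKM + 0.1). The square for EED lies above its circle in both panels, and the circle for EZH2 lies at -1.03 in hypoxia with its square at -0.21.

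The study selected genes by 3 inequalities on FPKM. A gene had to be more than 2 times as high in H-scr as in H-si, higher in H-scr than in N-scr, and no higher in N-si than in N-scr. Of the 10 coregulators 0 met all of them, and 3.84% of the genes tested did. EZH2 met the first and the third but was not higher in H-scr than in N-scr.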

How the data were processed

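RNA of 4 libraries was measured by RNA-Seq. The authors prepared TruSeq mRNA libraries, sequenced them at 100 bp, aligned them to hg19 with TopHat/Cufflinks and Ensembl annotation, and deposited FPKM values. Versions are not given in the sources used here, and the labels call the reads single-end while the methods call them paired-end. Members and gene lists were chosen with earlier results of these data known.

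Changes were differences of log2(FPKM + 0.1) over the 15057 genes whose FPKM averaged 1 or more; 232 rows with a repeated gene ID were left out. With 1 library per group no test was run. Depth was recovered from 3815 genes with 1 exon, of whose low values 96.9% to 98.0% were whole reads within 0.05. Approximate reads were FPKM times depth times length less 212 bp. The 95% intervals are Clopper-Pearson and cover counting error only. In all, 3 length rules were tried one after the other, each after the intervals of the one before had been seen: canonical transcript length, median protein-coding transcript length and coding length (GENCODE v44lift37). The first is used throughout, and the other 2 are given as alternatives. The named genes of each list are those past 2-fold in a hypoxia response or the same way in both TET1-si responses, at most 6 by size, with KANSL2, KANSL3, E2F1 and CCNE1 named after their values were seen. A gene that this rule names is not reported here. KMT2B was matched by a RefSeq synonym, and PECAM1 was not analysed here. Table starts count from 0, so 1 was added. Python 3.11.15, pandas 2.3.3 and scipy 1.17.1 were used.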

Additional observations from a re-analysis of the deposited data

Results flagged for a closer look

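HDAC2 and SUZ12 moved in opposite directions with TET1-si in the 2 oxygen states. HDAC2 changed by 0.26 in normoxia and by -0.091 in hypoxia (counting interval -0.11 to -0.07). SUZ12 changed by 0.28 in normoxia and by -0.094 in hypoxia (counting interval -0.17 to -0.02). The difference between the 2 TET1-si responses equals that between the 2 hypoxia responses. It lay at the 27.3 percentile of all genes tested for HDAC2 and at the 25.9 percentile for SUZ12, so differences of this size were common. With 1 library per group the difference between the oxygen states was not tested. Which of these genes stands out depends on the transcript length assumed for the reads. With the canonical length both changes in hypoxia left out 0. With the median protein-coding length HDAC2 no longer did (interval -0.21 to 0.03), and with the coding length SUZ12 no longer did (interval -0.20 to 0.01). The lengths assumed for HDAC2 were 9737, 560 and 1464 bp, and the files do not say which fits the transcripts in these cells.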

How the results depend on the processing

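EZH2 as a member 2-fold lower for TET1-si in hypoxia was lost with a pseudocount of 1 (0 members, change -0.98) and after rescaling to TPM (0 members, change -0.96). At 1.5-fold, 1 member passed for hypoxia in scrambled cells, and 5 passed for hypoxia with TET1-si. The median change of the members became -0.10 for TET1-si in hypoxia and -0.028 for TET1-si in normoxia with median-of-ratios scaling, 0.019 for TET1-si in normoxia and -0.27 for hypoxia in TET1-si cells with upper-quartile scaling, and -0.12 and -0.24 for hypoxia in scrambled and TET1-si cells as TPM. Median-of-ratios scaling moved the all-gene medians for TET1-si from 0.10 to -0.01 in hypoxia and from 0.15 to -0.00 in normoxia, and the share of higher genes among those called for TET1-si from 59.0% to 49.2% and from 68.6% to 56.0%. The all-gene medians for hypoxia also moved, to 0.16 in both cell states as TPM. With upper-quartile scaling the all-gene median for hypoxia in TET1-si cells became 0.14. Less the all-gene median, the members' median hypoxia change was -0.28 in scrambled and -0.41 in TET1-si cells as first computed. It was also -0.28 and -0.41 as TPM and with upper-quartile scaling. Of 280 recomputed member changes, 10 turned sign, all of EP300, HDAC1, HDAC3 or SIRT1 and none over 0.11 in size as first computed. Without the filter 6171, 7136, 7309 and 5998 genes passed 2-fold (hypoxia in scrambled cells, hypoxia in TET1-si cells, TET1-si in hypoxia, TET1-si in normoxia). With a mean FPKM of at least 5, 1371, 1836, 1670 and 1327 did. With a pseudocount of 1, 1724 did for hypoxia in scrambled cells and 1743 for TET1-si in normoxia. The counts under other filters are over other numbers of genes, so they cannot be set beside the shares above. With a mean FPKM of at least 5 the all-gene medians for hypoxia were -0.03 in scrambled and -0.06 in TET1-si cells. Less these, the median change of the members was -0.21 and -0.32. For hypoxia in TET1-si cells, the share of higher genes among those called went from 59.1% to 44.8% with that filter.

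On the pathway lists, a pseudocount of 1 lost 8 calls of 2-fold change (KAT2B, CITED4, TBL1X, EPAS1 and SIRT4), and median-of-ratios, upper-quartile and TPM scaling lost 3, 3 and 1 and gained 5, 7 and 11. Of 40 medians of neighbouring genes, 24 moved by more than the member's counting error with a window of 20 genes. The pseudocounts and filters on the lists and the counts over all genes were added after seeing the data.

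The 2 other length rules were added after seeing the data. Of 40 member changes, the interval left out 0 for 33 with the canonical length, 30 with the median protein-coding length and 32 with the coding length. The changes that differed were those of CREBBP in both hypoxia responses and of HDAC2 and SUZ12 for TET1-si in hypoxia; members with opposite TET1-si responses numbered 2, 1 and 1. No paired analysis was possible because each group had 1 library, and none could be left out.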
